A study of Xenopus laevis with 6 samples.

Results

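The cadherins, protocadherins and integrins of *Xenopus laevis* were examined in RNA-seq counts from whole embryos. Members were chosen by name: every counted gene model whose symbol, without its homeolog suffix, is *cdh* followed by a number, begins with *pcdh*, or is *itga* or *itgb* followed by a number, with integrin-binding proteins left out. The rule found 103 of 35773 models, which carry 60 symbols: 41 cadherin copies of 24 symbols, 29 protocadherin copies of 15 symbols and 33 integrin copies of 21 symbols. Because *X. laevis* is allotetraploid, most genes have an L and an S copy on homeologous chromosomes, and the copies were counted apart. Every one of the 103 models had at least 1 count in some library.

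Classical cadherins hold cells together by binding the same cadherin on the neighbouring cell and are tied to actin inside the cell through beta-catenin, p120-catenin and alpha-catenin. Protocadherins share the extracellular cadherin repeats but lack the catenin-binding tail, and several of them act in cell sorting and tissue movements of the early embryo. Integrins are pairs of an alpha and a beta chain that bind laminin, collagen, fibronectin or other ligands of the extracellular matrix, and migrating neural crest cells use both cadherins and integrins.

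The 6 libraries were poly(A) RNA of whole embryos at Nieuwkoop-Faber stage 32, in 3 groups of 2 libraries: control, *kdm5c* MO and *kdm3a* MO. *kdm5c* and *kdm3a* encode histone lysine demethylases, and MO stands for an antisense morpholino oligonucleotide, which for *kdm5c* blocks translation of the mRNA. The labels place injection at the 2-cell stage, and whether control embryos received an injection, and how the *kdm3a* MO acts, is not given in the sources used here. A later date stands in the *kdm3a* MO labels, and the effects of that condition and that date cannot be told apart. Libraries are named by condition and number: control 1 and 2, *kdm5c* MO 1 and 2, and *kdm3a* MO 3 and 4. The title of control 2 gives it the number 2 and the description the number 3. The replicates are described as biological, but nothing says that they came from separate clutches, so p-values measure only the spread between these libraries. In whole embryos, fewer cells of a type and less RNA per cell cannot be told apart.

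Total counts ranged from 12838245 to 20217436 per library, and levels are given as CPM, the counts scaled to a common library size after trimmed-mean (TMM) normalization. The scaling factor was 0.710 in *kdm5c* MO 1 and 1.02 to 1.16 in the other libraries. A count of 0 allows a level of up to 0.143 to 0.303 CPM, a limit of 3 counts that covers counting error only. The limit takes reads as separate, and since most counts hold both reads of a pair, it is too narrow. Counts of *kdm5c.L* were 1723 and 1849 in the controls, 1407 and 1702 in *kdm5c* MO and 2860 and 2008 in *kdm3a* MO. Those of *kdm3a.L* were 1820 and 1338, 609 and 905, and 8588 and 5529 in the same order. For *kdm5c.S* they were 914 and 1070, 343 and 860, and 1296 and 1070. For *kdm3a.S* they were 3909 and 2501, 1259 and 1255, and 9077 and 3534, so that *kdm3a* MO 4 lay between the controls. These counts are not scaled for depth. Since blocked translation can leave an mRNA in place, the counts are no check of which library received which morpholino. Control 1 and *kdm5c* MO 1 stood apart from the other libraries. In control 1, 17 of 22 skeletal muscle marker copies and 17 of 24 endothelial marker copies had their lowest value of the 6 libraries. The same held for 27.1% of all models. In control 1, 2 of these muscle copies and 3 of the endothelial copies were highest. So were 7 of 11 kidney and 8 of 16 neural crest marker copies, against 22.8% of all models. Summed muscle markers ranged from 5539 CPM in control 1 to 45025 CPM in *kdm5c* MO 1.

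The levels of the members differed between libraries. On a log2 scale of CPM plus 0.5, 81 members were compared across all 6 libraries. Control 1 held the lowest value of 24 members, or 29.6%, and the highest of 22, or 27.2%. Over all models these shares were 27.1% and 22.8%. *kdm5c* MO 1 held the lowest value of 31 members, or 38.3%, where it held the lowest value of 24.5% of all models. Only 2 members, or 2.47%, were lowest in control 2, where 11.0% of all models were. Relative to each member's mean over the libraries, the median member stood at -0.09 in control 1, 0.35 in control 2, -0.55 in *kdm5c* MO 1, 0.15 in *kdm5c* MO 2, 0.06 in *kdm3a* MO 3 and 0.20 in *kdm3a* MO 4. The corresponding medians of all models lay between -0.05 and 0.06. For 29 members, or 35.8%, control 1 and *kdm5c* MO 1 were the lowest pair of libraries, against 13.4% of all models.

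**Figure D1:**
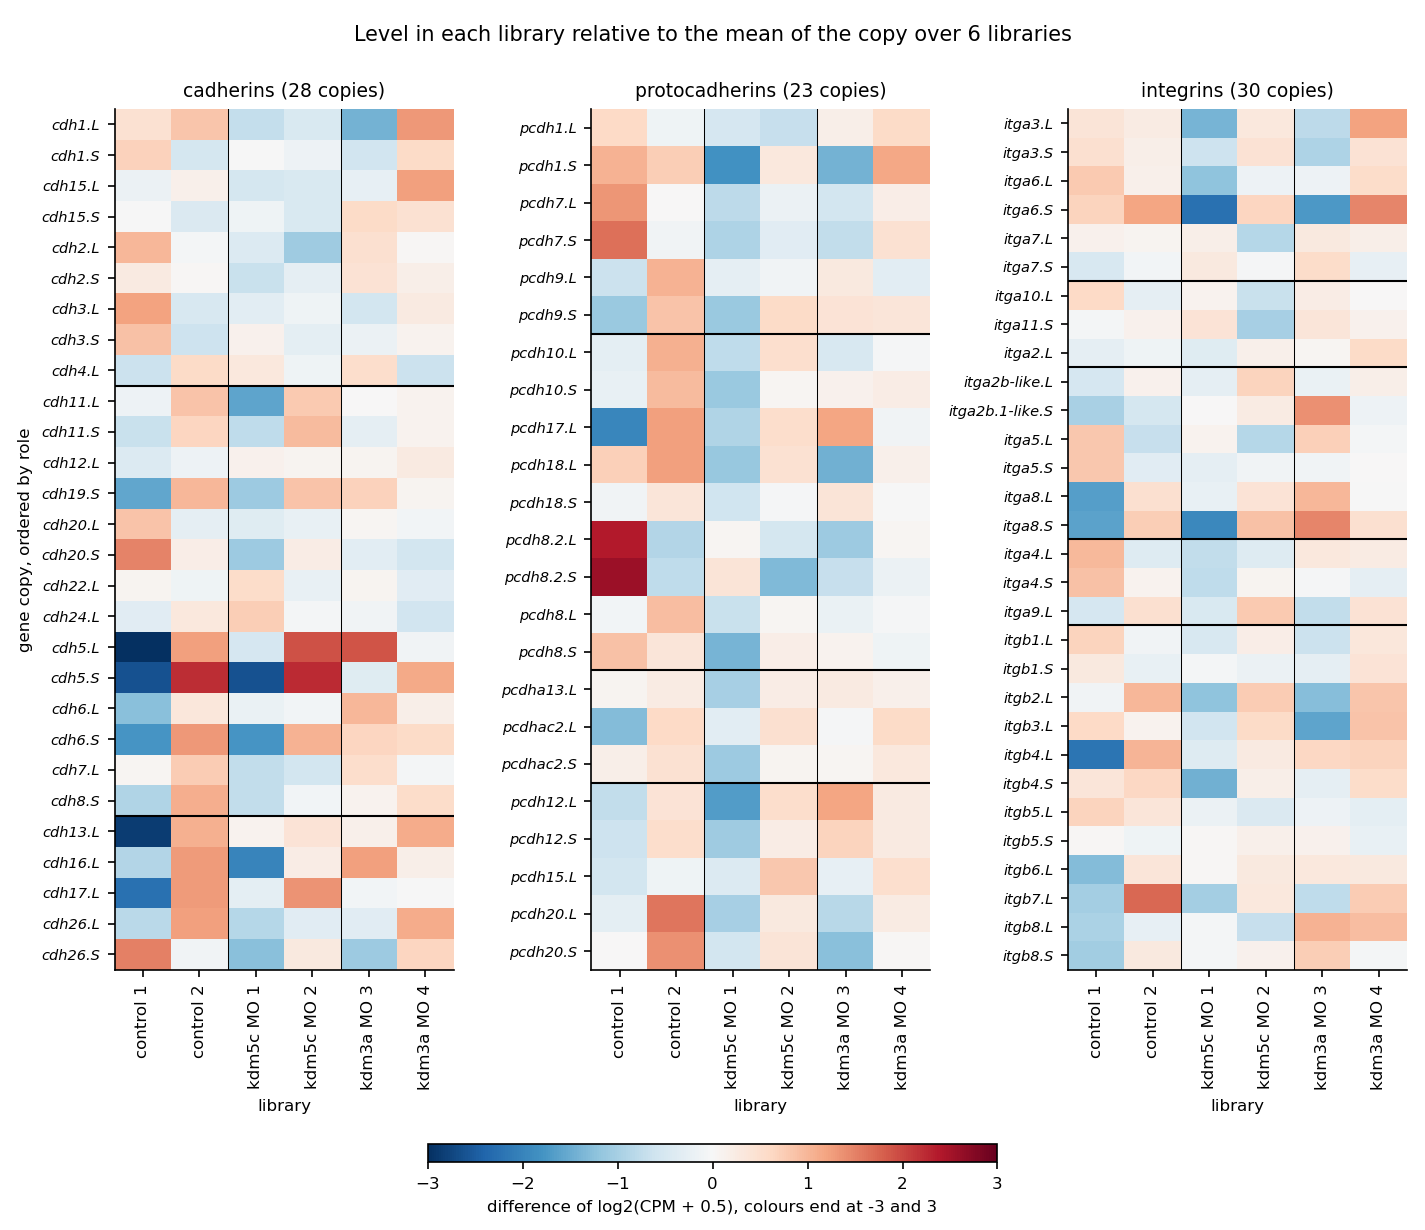
Heat map of 81 cadherin, protocadherin and integrin copies (rows) in the 6 libraries (columns); colour is log2(CPM + 0.5) minus the copy's mean over the libraries. The 28 cadherin, 23 protocadherin and 30 integrin copies show the lowest values most often in *kdm5c* MO 1 (31 copies) and control 1 (24 copies). These are 38.3% and 29.6% of the copies, against 24.5% and 27.1% of all models.

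Each comparison was fitted over all models that passed a filter on low counts, with edgeR's exact test in the 4 libraries concerned. A model was called past the limits at a false discovery rate (FDR, Benjamini-Hochberg) below 0.01 and a more than 4-fold change. In the *kdm5c* MO against control comparison, 77 members were tested among 26152 models. None of the 77 passed the limits, and neither did any other model (0%). At an unadjusted p below 0.05, 0 members were lower, against 1.01% of all models, and 0 were higher, against 3.29%, in edgeR's exact test. The edgeR quasi-likelihood test gave 0 as well, and DESeq2 gave 2 lower, *cdh2.L* and *pcdh7.S*, with the share of all models not counted for either. For 18 members, or 23.4%, the higher *kdm5c* MO library was still below the lower control, where this held for 17.9% of all models. They lay above both controls for 2 members, *itga2b.1-like.S* and *itga7.S*, or 2.6%, where 17.7% of all models did so. The median log2 fold change was -0.49 over the members and -0.02 over all models. Of the 77 members, 56 had a lower and 21 a higher *kdm5c* MO mean, so that 72.7% were lower, against 50.8% of all models. The members' median was -0.56 without control 1 and -0.33 without *kdm5c* MO 1, with 64 of 84 and 56 of 88 tested members lower. It was -0.17 without control 2, with 45 of 82 lower, and -1.05 without *kdm5c* MO 2, with 73 of 84 lower. The medians of all models in these fits were -0.01, -0.05, 0.14 and -0.23, in the same order. The shares of all models that were lower were 50.7%, 52.9%, 45.4% and 57.3%.

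In the *kdm3a* MO against control comparison, 80 members were tested among 26491 models. None passed the limits, which 0.125% of all models did. The unadjusted p of edgeR's exact test was below 0.05 for 1 lower member, *pcdh8.2.S* (1.28% of all models were lower at this p), and 1 higher member, *itgb8.L* (1.92%). Groups did not overlap for 6 members lower in both *kdm3a* MO libraries, or 7.5% against 15% of all models, and for 7 members higher in both, or 8.75% against 17.1%. The median log2 fold change was -0.18 over the members, with 47 lower and 33 higher, and -0.02 over all models. Thus 58.75% of the members were lower, against 50.9% of all models. The members' median was -0.14 without control 1, -0.08 without *kdm3a* MO 3 and -0.38 without *kdm3a* MO 4. It was 0.21 without control 2, where 34 of 85 members were lower, against 45.3% of all models. The medians of all models in these fits were 0.02, -0.07, -0.05 and 0.14, in the same order.

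In the *kdm3a* MO against *kdm5c* MO comparison, 78 members were tested among 26092 models, and none passed the limits, which 0.0537% of all models did. No member was lower at an unadjusted p below 0.05 in edgeR's exact test, against 3.13% of all models, and 1, *itgb8.L*, was higher, against 1.52%. By the edgeR quasi-likelihood test 2 members were higher at that p, and the share of all models was not counted for it. Both *kdm3a* MO libraries lay below both *kdm5c* MO libraries for 0 members (15.9% of all models) and above both for 19 members, or 24.4% against 18.4% of all models. The median log2 fold change was 0.39 over the members, with 17 lower and 61 higher, and 0.03 over all models. Thus 21.8% of the members were lower, against 48.1% of all models. With 1 library left out the members' median ranged from 0.16 without *kdm3a* MO 4 (35 lower and 48 higher) and 0.18 without *kdm5c* MO 1 (28 and 55) to 0.85 without *kdm5c* MO 2 (10 and 74). The medians of all models in these fits were -0.05, 0.08 and 0.20, in the same order. The comparisons share libraries, so their values stand side by side and are not independent. The lowest FDR of any member was 1 in all 3 comparisons, and an exact two-sided permutation test of 2 against 2 libraries cannot go below 0.333 for a single gene.

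**Figure D2:**
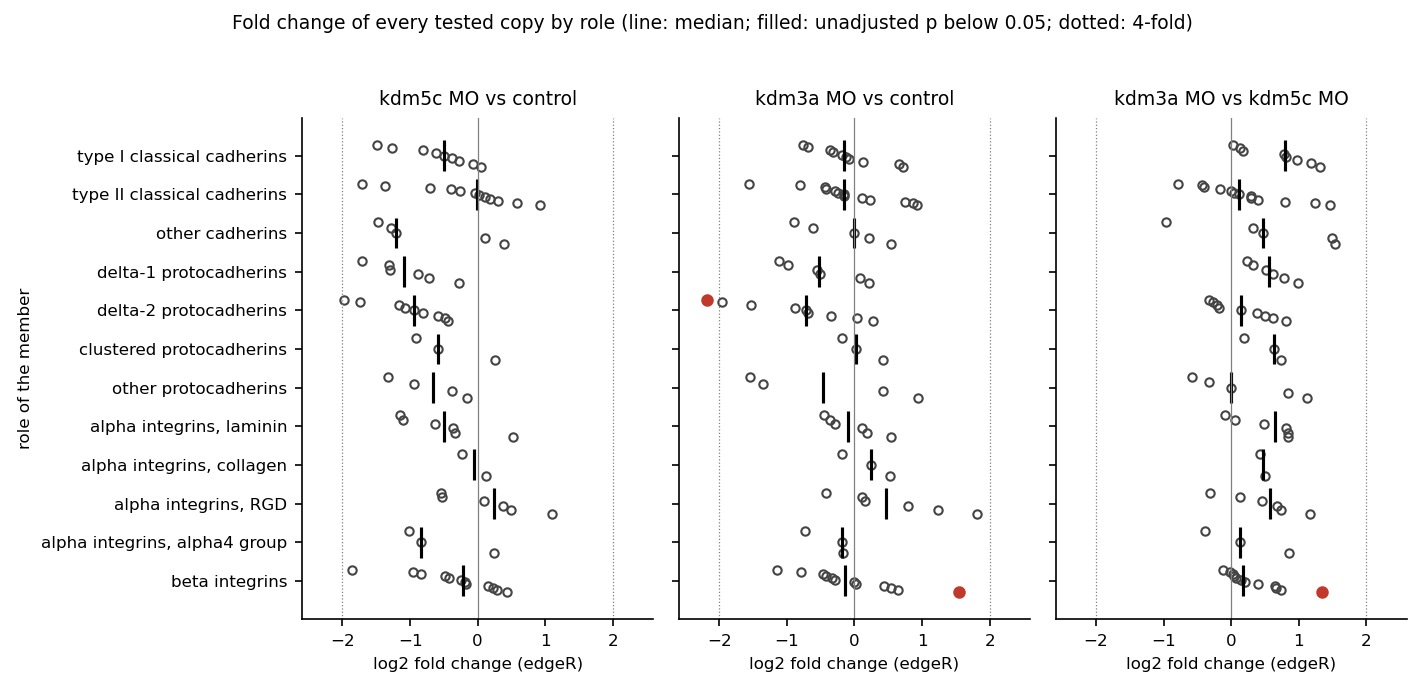
Log2 fold change of each tested member in the 3 comparisons, arranged by 12 roles; short lines are role medians, filled points have an unadjusted p below 0.05 in edgeR's exact test, and dotted lines mark 4-fold. Most points lie below 0 in *kdm5c* MO against control (56 of 77) and above 0 in *kdm3a* MO against *kdm5c* MO (61 of 78), and the filled points are *pcdh8.2.S* and *itgb8.L*. Of all models, 50.8% and 48.1% were below 0 in these comparisons.

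Type I classical cadherins are the strong homophilic adhesion molecules of epithelia, neural tissue and muscle. Of 9 tested copies, 8 had a lower *kdm5c* MO mean than the controls (median log2 fold change -0.49), and without control 1 the split was 6 lower and 4 higher at a median of -0.48. All 8 copies tested in *kdm3a* MO against *kdm5c* MO were higher (median 0.79). *cdh2* encodes N-cadherin, the cadherin of the neural tube, eye and muscle. *cdh2.L* (Xelaev18031953m) stood at 132 CPM in control 1 and 63.7 in control 2, at 49.9 and 31.1 in *kdm5c* MO 1 and 2, and at 92.4 and 68.1 in *kdm3a* MO 3 and 4. Both *kdm5c* MO libraries were the lowest of the 6. The log2 fold change of *cdh2.L* was -1.27 ± 0.68 (SE, p = 0.072) against control and 0.98 ± 0.56 (p = 0.086) for *kdm3a* MO against *kdm5c* MO, with unadjusted p from edgeR's exact test, and without control 1 the first was -0.66. *cdh2.S* had 53.9 and 45.2 CPM in the controls, 27.5 and 36.9 in *kdm5c* MO and 60.4 and 50.5 in *kdm3a* MO, so its *kdm5c* MO libraries were also the lowest pair.

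*cdh1* encodes E-cadherin, the main cadherin of epithelial cells and of the epidermis. *cdh1.S* stood at 401 and 170.2 CPM in the controls, 247 and 222 in *kdm5c* MO and 166 and 365 in *kdm3a* MO, and the 3 groups overlapped. Nearly all *cdh1* counts came from this copy, the L copy taking 0.373% to 2.74% per library. *cdh1.L* stood at 3.62 and 4.80 CPM in the controls, 1.31 and 1.67 in *kdm5c* MO and 0.619 and 6.91 in *kdm3a* MO, with a log2 fold change of -1.49 ± 0.999 (SE) in *kdm5c* MO against control (edgeR's exact test, unadjusted p = 0.162). *cdh3* encodes the C-cadherin of the early *Xenopus* embryo, supplied maternally. *cdh3.L* had 156 and 48.7 CPM in the controls, 54.7 and 62.3 in *kdm5c* MO and 46.4 and 81.7 in *kdm3a* MO. *cdh3.S* had 109 and 38.1, 64.5 and 48.5, and 52.2 and 63.3 CPM in the same order. In both copies control 1 was the highest library and control 2 lay below or among the morphants. R-cadherin, encoded by *cdh4* and known from the retina, was scarce, with at most 1.29 CPM for *cdh4.L* and 0.703 CPM for *cdh4.S* in any library.

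Type II cadherins are a larger family with more restricted tissues, and 12 of their 24 copies could be tested in *kdm5c* MO against control. Lower and higher means were equally frequent among them, with 6 each and a median of -0.01. VE-cadherin, encoded by *cdh5*, is the defining adhesion molecule of endothelial cells. *cdh5.L* (Xelaev18022588m) had 0 counts in control 1 and 421 in control 2, 70 and 526 in *kdm5c* MO 1 and 2, and 828 and 140 in *kdm3a* MO 3 and 4. *cdh5.S* had 0 and 237 counts in the controls, 0 and 186 in *kdm5c* MO and 40 and 93 in *kdm3a* MO. So *cdh5* was absent from the counts of control 1, with a limit of at least 3 counts, while control 2 lay within the range of the morphants. The fit without control 2 set *cdh5.L* against the single control library with 0 counts, so its calls are not given.

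Most copies of the endothelial marker list were lowest in the same library. This was not particular to endothelium. In control 1, 17 of 22 skeletal muscle, 15 of 23 neural and 8 of 17 lens and retina copies were lowest too. By contrast, 0 of 16 neural crest and 2 of 14 epidermis copies were lowest there. Endothelial *pecam1.L* had 0 counts in control 1 and 81 in control 2, and *erg.L*, a transcription factor of endothelium, had 0 and 120. Of 24 endothelial copies, 17 were lowest in control 1, where 27.1% of all models were, and 5 were at 0 there. The sum over the list, 323 CPM in control 1 and 253 to 303 CPM in the other libraries, did not show this. *aplnr.L* and *aplnr.S* had 1627 and 1751 counts in control 1 and at most 1322 and 638 in the other libraries. Along with *kdr.L*, at 209 counts in control 1 and at most 124 elsewhere, they were the 3 copies highest in control 1. The part of the endothelial share of each sample in the *cdh5* values was not tested.

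*cdh11* acts in the migration of cranial neural crest in *Xenopus*. *cdh11.L* had 23.8 and 48.5 CPM in the controls, 8.496 and 46.3 in *kdm5c* MO and 26.6 and 28.6 in *kdm3a* MO. *cdh11.S* had 24.7 and 62.3 CPM, 23.1 and 76.1 CPM, and 32.6 and 42.5 CPM in the same order. In both copies *kdm5c* MO 1 was the lowest library. The *kdm5c* MO libraries spanned the controls in *cdh11.S*, while in *cdh11.L* control 2 lay above both of them. *cdh6*, a cadherin known from the kidney and the neural crest, was lowest in control 1 in *cdh6.L*. In *cdh6.S*, control 1 (12 counts) and *kdm5c* MO 1 (8 counts) were nearly equal in CPM and lowest. *cdh6.S* stood at 0.805 and 10.5 CPM in the controls, 0.809 and 8.66 in *kdm5c* MO and 6.48 and 6.09 in *kdm3a* MO. *cdh6.L* stood at 5.57 and 17.9, 12.1 and 13.1, and 28.4 and 15.8 CPM. The GPI-anchored T-cadherin gene *cdh13.L* had 0.134 CPM in control 1, 9.14 in control 2 and 4.45 to 9.41 in the morphants. Of the 7 cadherin copies outside the classical types, 5 were tested in each comparison. In *kdm5c* MO against control, 3 were lower and 2 higher (median log2 fold change -1.21). All 5 overlapped between the groups, where 17.9% of all models were lower and 17.7% higher without overlap. The medians of these 5 copies were -0.01 in *kdm3a* MO against control and 0.47 in *kdm3a* MO against *kdm5c* MO.

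**Figure D3:**
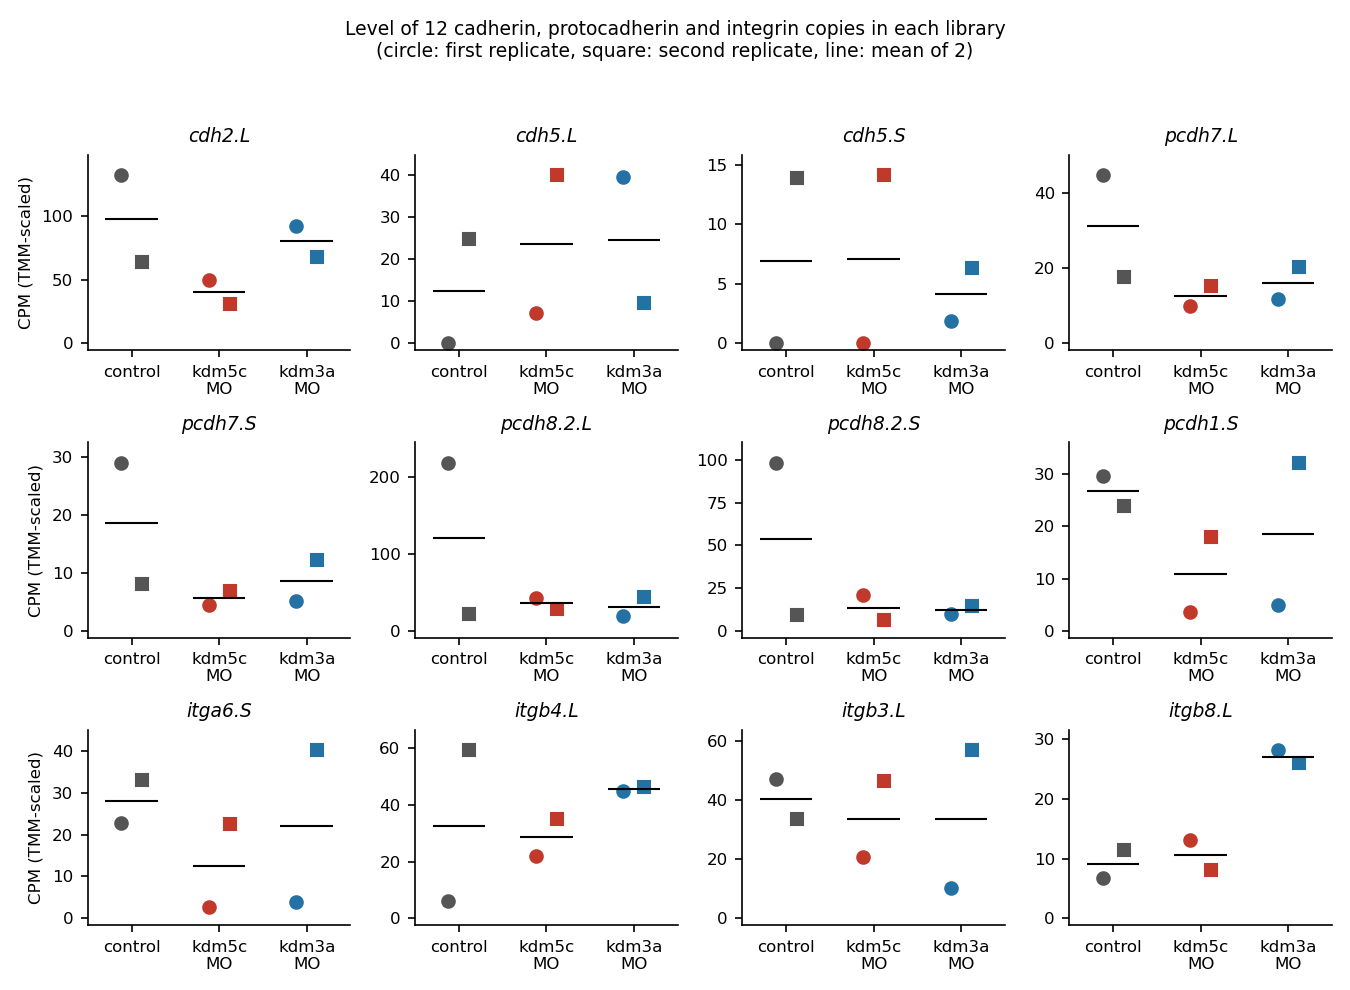
CPM of 12 named copies in each library on a linear axis from 0; the circle is the first and the square the second replicate of each group, and the line is the group mean. *cdh5.L* lies at 0 in control 1, *pcdh8.2.L* and *pcdh8.2.S* are high in control 1 alone, and *itgb8.L* is higher in both *kdm3a* MO libraries (28.2 and 26.0 CPM) than in the other 4.

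Delta-1 protocadherins, which carry conserved motifs in their cytoplasmic tail, include the axial protocadherin *pcdh1* of the notochord and the NF-protocadherin *pcdh7* of the embryonic ectoderm and neural folds. The mean of all 6 tested copies was lower in the *kdm5c* morphants than in the controls (median -1.09). Both copies of both genes, 4 of the 6, were lower without overlap, where 17.9% of all models were. Without control 2 the split was 4 lower and 2 higher (median -1.33), and without *kdm5c* MO 1 it was 5 and 1 (median -0.83). *pcdh7.S* (Xelaev18008979m) stood at 29.0 and 8.14 CPM in the controls, 4.45 and 6.83 in *kdm5c* MO and 5.10 and 12.3 in *kdm3a* MO. *pcdh7.L* stood at 44.7 and 17.5, 9.91 and 15.3, and 11.7 and 20.2 CPM in the same order. In both copies control 2 was much closer to the morphants than to control 1. The log2 fold change in *kdm5c* MO against control was -1.71 ± 0.86 (SE, p = 0.0587) for *pcdh7.S* and -1.30 ± 0.73 (p = 0.0864) for *pcdh7.L* in edgeR's exact test (unadjusted), and for *pcdh7.S* it was -0.53 without control 1.

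*pcdh1.L* had 58.5 and 34.9 CPM in the controls, 26.7 and 23.6 in *kdm5c* MO and 43.1 and 57.3 in *kdm3a* MO, with the *kdm5c* MO libraries lowest. Its log2 fold change in *kdm3a* MO against *kdm5c* MO was 0.99 ± 0.53 (SE, edgeR's exact test, unadjusted p = 0.0692). The S copy behaved otherwise. *pcdh1.S* (Xelaev18021541m) had 29.7 and 23.9 CPM in the controls, 3.64 and 17.9 in *kdm5c* MO and 4.95 and 32.2 in *kdm3a* MO, so that *kdm5c* MO 1 and *kdm3a* MO 3 were low and their replicates were not. The L copy therefore took 88% of *pcdh1* counts in *kdm5c* MO 1 and 89.7% in *kdm3a* MO 3, against 56.9% to 66.4% in the other libraries.

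Delta-2 protocadherins include *pcdh8*, the paraxial protocadherin that acts in gastrulation movements and somite segmentation, the related *pcdh8.2*, and *pcdh10* and *pcdh18*, which are expressed in the nervous system and other tissues. All 9 tested copies had lower *kdm5c* MO means (median -0.94), and without control 1 the split was 8 lower and 2 higher (median -1.19). Without control 2 it was 7 lower and 2 higher at a median of -0.21. *pcdh8.2.S* (Xelaev18015747m) stood at 98.5 CPM in control 1 and 9.37 in control 2, at 21.1 and 6.15 in *kdm5c* MO and at 9.77 and 14.3 in *kdm3a* MO. *pcdh8.2.L* (Xelaev18013228m) stood at 219 and 22.2, 43.1 and 28.85, and 19.15 and 43.4 CPM in the same order. Control 1 was the only high library for both copies, and control 2 lay within the range of the morphants. For *pcdh8.2.S* the log2 fold change was -1.97 ± 1.09 (SE, p = 0.0917) in *kdm5c* MO and -2.17 ± 1.02 (p = 0.047) in *kdm3a* MO against control, and for *pcdh8.2.L* it was -1.74 ± 1.003 (p = 0.102) and -1.95 ± 1.04 (p = 0.0784), all unadjusted p of edgeR's exact test.

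These differences of *pcdh8.2* rested on control 1. Without that library the log2 fold changes turned to 0.69 for *pcdh8.2.L* and 0.54 for *pcdh8.2.S* in *kdm5c* MO, and to 0.49 and 0.35 in *kdm3a* MO. Without control 2, the log2 fold change of *pcdh8.2.S* in *kdm3a* MO against control was -3.04, with control 1 as the only control. *pcdh8.L* had 7.85 and 16.4 CPM in the controls, 5.06 and 8.81 in *kdm5c* MO and 7.24 and 8.13 in *kdm3a* MO, and here control 1 was not the high library. *pcdh8.S* had 19.8 and 13.5, 3.64 and 12.1, and 11.2 and 9.48 CPM, with both controls above all 4 morphant libraries. In the RefSeq gene order *pcdh17*, *pcdh8.2* and *pcdh8* are neighbours on both L and S chromosomes, yet *pcdh17.L* had 0.134 CPM in control 1 and 5.27 in control 2.

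*pcdh18.L* had 15.97 and 22.8 CPM in the controls, 4.05 and 13.2 in *kdm5c* MO and 3.14 and 10.6 in *kdm3a* MO, with both controls above all morphants. Its log2 fold change was -1.16 ± 0.81 (SE, p = 0.166) in *kdm5c* MO and -1.52 ± 0.83 (p = 0.0784) in *kdm3a* MO (edgeR's exact test, unadjusted). *pcdh18.S* stood at 30.9 and 43.1, 21.9 and 32.6, and 44.0 and 33.4 CPM, and its *kdm3a* MO libraries were not low. Accordingly, *pcdh18.L* took 34.1% and 34.6% of *pcdh18* counts in the controls, 15.6% and 28.9% in *kdm5c* MO and 6.67% and 24.2% in *kdm3a* MO. *pcdh10*, the neighbour of *pcdh18* on both chromosomes, was highest in control 2 in both copies, at 12.2 CPM for *pcdh10.L* and 16.8 CPM for *pcdh10.S*. Its values in the other libraries ran from 3.03 to 8.05 CPM for *pcdh10.L* and from 3.64 to 10.02 CPM for *pcdh10.S*. Clustered protocadherins, known for neuronal self-recognition, were thinly counted, and 3 of 7 copies could be tested in *kdm5c* MO against control (median -0.59).

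Alpha integrins were taken by ligand. Those that bind laminin are *itga3*, *itga6* and *itga7*, and 5 of 6 copies had lower *kdm5c* MO means (median -0.49). *itga6*, which pairs with *itgb4* in the hemidesmosomes of epithelia, had 117 and 75.4 CPM in the controls, 29.1 and 60.4 in *kdm5c* MO and 60.8 and 99.7 in *kdm3a* MO for *itga6.L*. For *itga6.L* the *kdm5c* MO and control values did not overlap, with a log2 fold change of -1.10 ± 0.68 (SE, edgeR's exact test, unadjusted p = 0.114). *itga6.S* (Xelaev18047171m) stood at 22.9 and 32.9 CPM in the controls, 2.63 and 22.5 in *kdm5c* MO and 3.95 and 40.2 in *kdm3a* MO. As in *pcdh1*, the S copy was low in *kdm5c* MO 1 and *kdm3a* MO 3 alone, and the L copy took 91.7% and 93.9% of *itga6* counts there, against 69.6% to 83.7% elsewhere. *itga3.L* had 37.5 and 33.7 CPM in the controls, 10.5 and 35.5 in *kdm5c* MO and 16.3 and 66.2 in *kdm3a* MO. *itga3.S* had 68.4 and 55.3, 31.8 and 65.8, and 25.6 and 66.3 CPM, again with the first library of each morphant group low. Over all 81 members, *kdm5c* MO 1 and *kdm3a* MO 3 were the lowest pair for 18, or 22.2%, against 16.002% of all models.

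Integrin alpha-5 forms the main fibronectin receptor with beta-1 and assembles fibronectin fibrils in the gastrula. *itga5.L* stood at 109.8 and 38.5 CPM in the controls, 67.1 and 34.3 in *kdm5c* MO and 103 and 59.9 in *kdm3a* MO, with full overlap. *itga5.S* stood at 68.2 and 30.5, 32.2 and 35.9, and 35.8 and 38.9 CPM. Among the 6 tested chains that recognise the Arg-Gly-Asp motif, 2 were lower and 4 higher in *kdm5c* MO against control, with a median of 0.24 that turned to -0.01 when scaled by library size alone. *itga2b*, the platelet integrin chain, was thinly counted. *itga2b.1-like.S* had 1.07 and 1.64 CPM in the controls, 2.63 and 3.19 in *kdm5c* MO and 7.48 and 2.30 in *kdm3a* MO, with both controls the lowest, and *itga2b-like.L* had 2.01 to 5.09 CPM. *itga4*, which binds VCAM-1 and fibronectin on leucocytes and neural crest, had both *kdm5c* MO libraries at or below the controls. *itga4.L* stood at 50.2 and 19.2, 14.97 and 19.2, and 31.7 and 30.3 CPM, and *itga4.S* at 25.0 and 14.5, 7.69 and 14.2, and 13.1 and 11.0 CPM. Collagen-binding *itga11.S* had 0.532 to 2.23 CPM, and *itga11.L*, with 0 to 10 counts, was too low to test.

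Beta chains gave 8 lower and 4 higher of 12 in *kdm5c* MO against control (median -0.22, or 6 of each at -0.03 without *kdm5c* MO 1) and 2 lower and 10 higher in *kdm3a* MO against *kdm5c* MO (median 0.17, or 5 and 7 at 0.05 without *kdm5c* MO 1). *itgb1*, the common partner of most alpha chains, overlapped between groups. *itgb1.L* stood at 241 and 140.1 CPM in the controls, 108 and 174 in *kdm5c* MO and 97.1 and 192 in *kdm3a* MO, and *itgb1.S* at 203 and 142, 159.6 and 147, and 137 and 218 CPM. *itgb8*, which pairs with alpha-v and activates latent TGF-beta, gave the lowest unadjusted p among the members. *itgb8.L* (Xelaev18030951m) had 6.71 and 11.4 CPM in the controls (mean 9.04 ± 3.29 SD, n = 2), 13.05 and 8.12 in *kdm5c* MO (10.6 ± 3.48) and 28.2 and 26.0 in *kdm3a* MO (27.1 ± 1.52). Both *kdm3a* MO libraries lay above the other 4. The log2 fold change of *itgb8.L* was 1.55 ± 0.66 (SE, p = 0.024) against control and 1.35 ± 0.62 (p = 0.0349) against *kdm5c* MO, unadjusted p of edgeR's exact test with an FDR of 1 in both. *itgb8.S* had 2.01 and 5.86, 4.45 and 5.16, and 8.19 and 4.47 CPM, and its groups overlapped.

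*itgb4.L* (Xelaev18044069m) had 5.97 CPM in control 1 and 59.4 in control 2, 22.05 and 35.2 in *kdm5c* MO and 45.0 and 46.3 in *kdm3a* MO. Its homeolog *itgb4.S* had 14.8 and 17.7, 3.84 and 12.9, and 9.43 and 17.0 CPM, so that control 1 was low in the L copy only. The L share of *itgb4* was 28.8% in control 1 and 73.1% to 85.2% in the other libraries. *itgb2*, the beta chain of leucocytes, and *itgb3*, known from platelets and endothelium, were low in the first library of both morphant groups. *itgb2.L* stood at 13.6 and 30.0 CPM in the controls, 6.07 and 25.1 in *kdm5c* MO and 5.72 and 26.6 in *kdm3a* MO. *itgb3.L* stood at 47.0 and 33.5, 20.8 and 46.55, and 10.1 and 56.9 CPM. The white blood cell markers summed to 203 CPM in *kdm3a* MO 3, 309 in *kdm5c* MO 1 and 444 to 549 in the other libraries. Of their 16 copies, 7 were lowest in *kdm3a* MO 3, against 15.4% of all models, and 1 was highest there. In *kdm5c* MO 1, 4 of the 16 were lowest and 0 highest, against 24.5% and 22.9% of all models. In control 1, 4 of the 16 were lowest, among them *lcp1.S* at 0 counts, and 5 were highest. The shares of all models in control 1 were 27.1% and 22.8%. The part of these markers in the *itgb2* values was not tested.

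**Figure D4:**
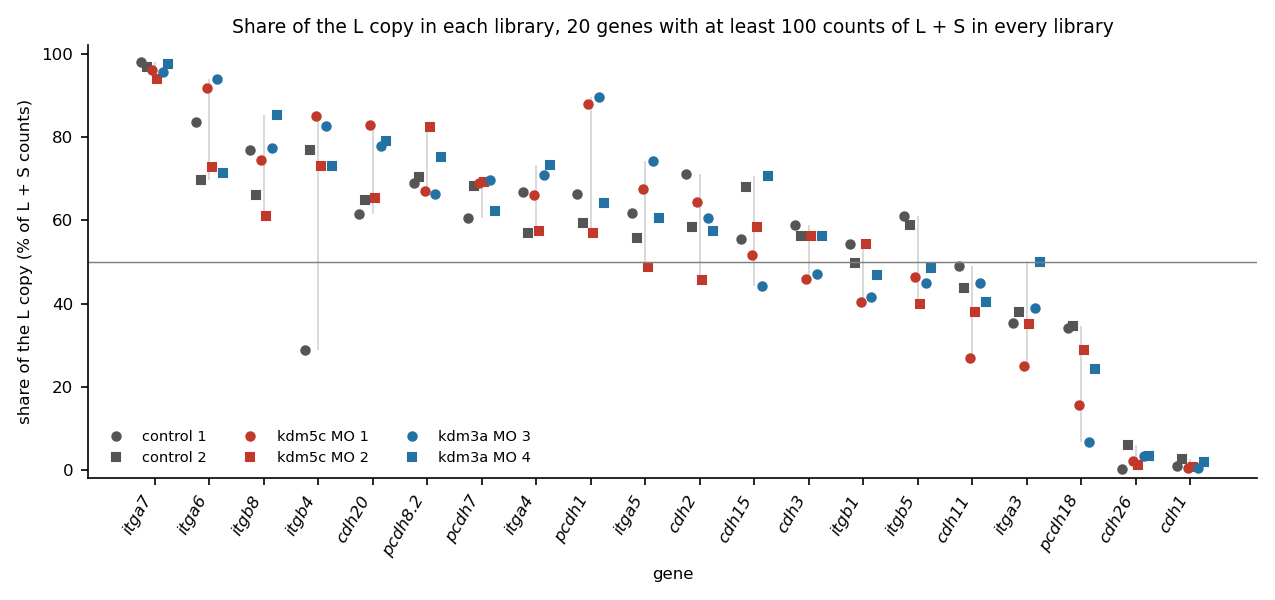
Share of counts from the L copy, in percent of L plus S counts, for 20 genes with at least 100 L and S counts in every library; each point is a library. The share stays above 50% in all libraries for 8 genes, below 50% for 5, and crosses 50% for 7, with the widest range (56.4 points) in *itgb4*.

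Homeolog shares could be followed in 20 of the 43 members' L and S pairs, those with at least 100 counts in every library. Their range over the 6 libraries had a median of 21.7 percentage points and ran from 2.37 to 56.4. The steadier pairs included *pcdh7*, with an L share of 60.6% to 69.7%, and *itgb1*, with 40.3% to 54.3%. *cdh2* moved between 45.8% and 71.1%. Lengths of the models were not used, so a share does not compare the expression of both copies, only its change between libraries.

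Replicates of the same condition differed widely. In the controls 15 of 81 members differed by more than 4-fold between libraries, or 18.5% against 10.1% of all models, and 13 of the 15 were lower in control 1, the others being both *pcdh8.2* copies. The corresponding counts were 9 members (11.1% against 8.56%) in *kdm5c* MO, all lower in *kdm5c* MO 1, and 6 members (7.41% against 6.97%) in *kdm3a* MO. Between the controls the log2 difference was -5.65 for *cdh5.L*, -4.85 for *cdh5.S*, -3.93 for *cdh13.L*, -3.21 for *itgb4.L* and 3.33 for *pcdh8.2.S*, as control 1 minus control 2. In *kdm5c* MO it was -4.87 for *cdh5.S*, -2.88 for *itga6.S* and -2.81 for *cdh6.S*, and in *kdm3a* MO -3.19 for *itga6.S*, -2.73 for *cdh1.L*, -2.58 for *pcdh1.S* and 2.001 for *cdh5.L*. Set against the single libraries with the same number, the median member of *kdm5c* MO 1 differed by -0.51 from control 1 on the log2 scale, and that of *kdm5c* MO 2 by -0.19 from control 2. In the latter pair 54 of 81 members were lower, or 66.7% against 50.1% of all models, and none differed by more than 4-fold.

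**Figure D5:**
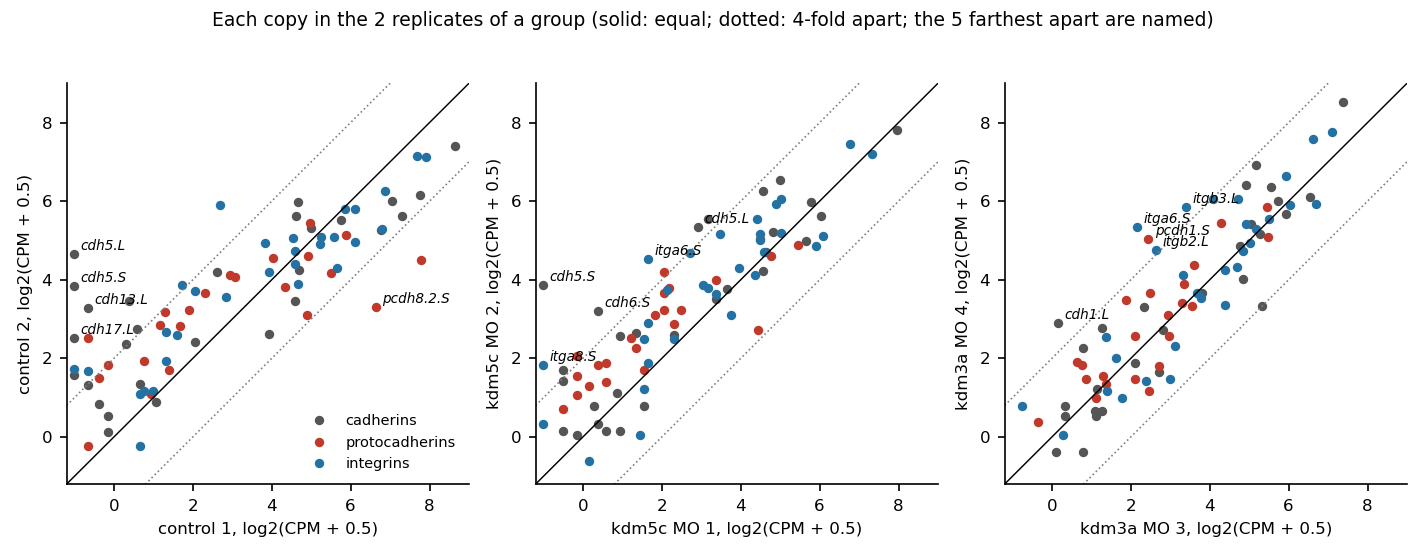
Log2(CPM + 0.5) of 81 members in both replicates of each group, with the diagonal and dotted lines at 4-fold; the 5 members farthest from the diagonal are named. More members lie beyond 4-fold in the controls (15) than in *kdm5c* MO (9) or *kdm3a* MO (6).

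A further 21 of the 103 copies passed the count filter in no comparison, with at most 30 counts in any library, and are named by count only. Among these were both copies of *cdh9*, *cdh10*, *itga1* and *pcdhgc4*. In 27 members at least 1 library had 0 counts. The number of members at 0 was 18 in control 1, 2 in control 2, 22 in *kdm5c* MO 1, 1 in *kdm5c* MO 2 and 6 in each *kdm3a* MO library. The share of all models at 0 in each library was not counted, so these numbers show no trait of the members. The limit of 3 counts was highest in *kdm5c* MO 1, at 0.303 CPM against 0.143 to 0.228 CPM in the other libraries.

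Genes that work with cadherins and integrins were described from lists of their own, and none of them passed the limits in any comparison by edgeR's exact test. Catenins, which link cadherins to actin, and vinculin were lower in 10 of 10 tested copies in *kdm5c* MO against control (median -0.38). The log2 fold changes ran from -0.98 for *ctnna2.S* to -0.04 for *ctnna1.L*, with 0 at an unadjusted p below 0.05 in edgeR's exact test. In *kdm3a* MO, 6 of the 10 copies were lower and 4 higher against control (-0.16), and 3 lower and 7 higher against *kdm5c* MO (0.29). Desmosomal genes gave 6 lower and 3 higher (-0.51), 6 and 3 (-0.03), and 0 and 9 (0.44) in the same order. Integrin adapters such as talin and paxillin gave 26 lower and 8 higher (-0.25), 22 and 11 (-0.33), and 11 and 22 (0.11). Laminins, fibronectin and other matrix ligands gave 18 lower and 14 higher (-0.08), 12 and 20 (0.21), and 8 and 24 (0.48). Of all models, 50.8%, 50.9% and 48.1% were lower in the same order, and these lists were not followed with a library left out. Among all these partners an unadjusted p below 0.05 was reached by *lamb2.L*, a laminin beta chain, and *thbs1.L*, a thrombospondin. *lamb2.L* had 576 and 746 counts in the controls, 498 and 280 in *kdm5c* MO and 2173 and 1498 in *kdm3a* MO, with both *kdm3a* MO libraries highest. Its log2 fold change in *kdm3a* MO was 1.28 ± 0.56 (SE, p = 0.0265) against control and 1.51 ± 0.61 (p = 0.0165) against *kdm5c* MO, unadjusted p of edgeR's exact test. *thbs1.L* had 419 and 2819, 1036 and 1773, and 7667 and 3703 counts, and its log2 fold change in *kdm3a* MO against *kdm5c* MO was 1.35 ± 0.57 (SE, edgeR's exact test, unadjusted p = 0.0212).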

How the data were processed

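Poly(A) RNA libraries of whole *X. laevis* embryos were grouped from the sample labels. The authors mapped reads to cDNA models with BWA (0.7.10 in the submitters' processing notes) and deposited raw counts per gene model, with L and S copies apart. How pairs were counted is not given in the sources used here, but 89.7% to 95.0% of counts from 1 to 20 were even, so most counts hold both reads of a pair. Models of near-identical homeologs or paralogs may share reads.

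Models were filtered with filterByExpr, scaled by TMM, and groups were contrasted through the exact test in edgeR (version 4.0.16, R 4.3.3), adjusting p-values over all models tested after Benjamini and Hochberg, each comparison using its own 4 libraries. The biological coefficient of variation was 0.647, 0.622 and 0.583 in the 3 comparisons, in the order of the report. Per-library levels used log2(CPM + 0.5). Alternatives were the edgeR quasi-likelihood test, with and without a replicate block, DESeq2 1.42.0, other scalings and filters, summed L and S counts, and each library left out. The scripts were tested on simulated data.

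Members, gene lists and the naming rule were chosen with earlier results of these data known. Named were every member past both limits, up to 5 lower and 5 higher per comparison at an unadjusted p below 0.05, the copies of 24 chosen genes, and the 3 members of each replicate pair that differed most with at least 5 CPM in one. A few copies outside the rule (*itga7.S*, *pcdh17.L*, *itgb8.S* and those counted as untested) were named after their values were seen. Log2 fold changes of single members were printed only for unadjusted p below 0.2, and not for every member below it. For the catenin list the ends of the range were printed whatever their p. Gene neighbours and synonyms came from RefSeq (assembly *Xenopus laevis* v10.1), where 86 of 103 members matched; no coordinates or sequences were used.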

Additional observations from a re-analysis of the deposited data

How the results depend on the processing

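Under the alternatives that kept all libraries, 0 members passed the limits in any comparison. A fit with a library left out leaves a single library in a group. Members past the limits or at an unadjusted p below 0.05 are therefore not counted for those fits.

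Of the members at an unadjusted p below 0.05, 0 were lower in *kdm5c* MO against control in edgeR's exact test. This became 4 with library size alone, 1 without a filter, 1 with at least 10 counts, 2 with DESeq2, 1 with all 6 libraries in the fit and 3 with the replicate block, and 0 to 8 with a library left out (higher members, 0 to 5). In *kdm3a* MO against control, 1 lower became 0 with library size alone, the quasi-likelihood test, all 6 libraries or summed copies, 2 with DESeq2, and 0 to 5 with a library left out. There 1 higher became 2 with at least 10 counts, 0 with summed copies, and 0 to 11 with a library left out. In *kdm3a* MO against *kdm5c* MO, 1 higher became 4 with library size alone, 2 with the quasi-likelihood test, 0 with summed copies, and 0 to 6 with a library left out. The cause of these differences was not tested.

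Scaling by library size alone moved the median of all models from -0.02 to -0.34 in *kdm5c* MO against control and from 0.03 to 0.34 in *kdm3a* MO against *kdm5c* MO, and the members' medians to -0.76 and 0.59. Members with lower *kdm5c* MO means then numbered 69 of 77. The 23 named log2 fold changes with an unadjusted p below 0.2 in edgeR's exact test were followed. They kept their sign and their side of the limits in all 218 values from alternatives with all libraries. Being chosen for a low p, they were likely to keep their sign. Of 92 values with a library left out, 4 turned in sign, all without control 1. Against control, *pcdh8.2.L* ranged from -2.602 to 0.69 in *kdm5c* MO and from -2.81 to 0.49 in *kdm3a* MO. *pcdh8.2.S* ranged from -3.13 to 0.54 and from -3.04 to 0.35. For *itgb8.L* the log2 fold change against control ranged from 1.24 to 2.001 with a library left out, and the unadjusted p from 0.0116 to 0.0604 with all libraries (edgeR and DESeq2).

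Controls and *kdm5c* MO share the numbers 1 and 2, and the deviations of same-numbered libraries had a Pearson correlation of 0.244 over 27277 models. With 2 pairs this does not show that the numbers pair the samples. With the replicate block, 54 of 77 members were lower in *kdm5c* MO against control, at a median of -0.48. The comparisons with *kdm3a* MO had no fit with a block, its libraries carrying the numbers 3 and 4.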
